A study of Mus musculus with 238 samples.

Results

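The cytosolic ribosomal protein genes were followed in mRNA-seq libraries of 15 brain regions and liver of aged mice. Members were the rows of the count table named Rpl or Rps with a number, with Rplp0, Rplp1, Rplp2 and Rpsa, whose mean level was at least 10 CPM (counts scaled to 1 M per library). Of 21076 gene rows, 83 carried such a symbol and 80 met the level, 32 of the small ribosomal subunit and 48 of the large subunit. The 3 rows left out, Rpl3l, Rpl10l and Rpl39l, had at most 0.282 CPM. The members next to the threshold from above were Rps27l at 32.2 CPM and Rpl7l1 at 53.9 CPM, so no member lay near it. The 80 genes sit on 19 chromosomes, 4 of them on X, and all were tested in every comparison of brain regions and of liver.

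The animals were C57BL/6JN mice of 19 months. In the diet experiment, females were fed freely (AL, 4 mice) or were dietary restricted (aDR, 5 mice, labelled DR in liver), and brain and liver were sequenced. In the plasma experiment, males received plasma of young mice (YMP, 3 mice) or saline (PBS, 4 mice) by injection behind the eye, and brain alone was sequenced. The experiments differ in sex, diet and handling, so none of these can be told apart between them, and each treatment was compared only with its own control. RNA came from homogenised tissue, so fewer cells of a type and less RNA per cell cannot be told apart.

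The ribosome is built of ribosomal RNA and the proteins that these genes encode. Most of these proteins are needed in about equal amount in a ribosome. The genes are known for a shared mode of control: their mRNAs start with a C followed by a run of pyrimidines, the 5′ terminal oligopyrimidine (TOP) motif, through which mTOR signalling adjusts their translation, while their mRNA levels tend to move as a group. Several have paralogs (Rpl22l1, Rps27l, Rpl7l1) that can take the place of, or act beside, the standard protein, and nearly all have processed pseudogenes elsewhere in the genome. Dietary restriction lowers mTOR activity in many tissues, which makes the group a usual readout of growth signalling.

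The start sites are shown first because the TOP motif is what the group shares by sequence. RefSeq start windows (GRCm38.p6) were at hand for 60 of the 80 members. A start that reads C at the first transcribed base followed by at least 4 bases that are C or T was found in 13 of 60 members (21.7%) and in 3.01% of the 27025 genes with an entry. It was found in 3 of 12 other genes of the TOP class with an entry and in 0 of 69 genes of the mitochondrial ribosome. The annotated start is often a few bases away from the start that cells use, and the absence of the letters in this window says nothing else. The lines below give 15 bases on each side of the start, 5′ to 3′ on the gene's strand. Capitals mark the C at the start and the pyrimidines that follow it.
Rps6 (chr4:86857353-86857382, minus strand): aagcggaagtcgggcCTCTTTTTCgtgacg
Rpl35 (chr2:39005117-39005146, minus strand): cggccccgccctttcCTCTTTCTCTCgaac
Rps10 (chr17:27635230-27635259, minus strand): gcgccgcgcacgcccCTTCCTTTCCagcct
Rps18 (chr17:33955651-33955680, minus strand): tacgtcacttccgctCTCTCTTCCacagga
Rpl15 (chr14:18270972-18271001, minus strand): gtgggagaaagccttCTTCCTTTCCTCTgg
Rpl38 (chr11:114668565-114668594, plus strand): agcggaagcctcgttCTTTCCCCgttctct
Rplp2 (chr7:141447636-141447665, plus strand): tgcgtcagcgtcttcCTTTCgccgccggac
Rps27 (chr3:90213634-90213663, minus strand): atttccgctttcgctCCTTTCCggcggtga
The paralogs Rps27l and Rpl22l1, which belong to different pairs, had no such start at the annotated base. For each, 1 annotated start is shown. Rps27l is the paralog of Rps27 above, and the partner of Rpl22l1, Rpl22, is not shown.
Rps27l (chr9:66946071-66946100, plus strand): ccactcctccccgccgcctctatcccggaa
Rpl22l1 (chr3:28805493-28805522, plus strand): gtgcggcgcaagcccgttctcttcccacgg

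Library totals ran from 0.606 to 32.4 M counts with a median of 8.44 M, and 6 libraries held under 2 M. The tissue labels were checked on markers fixed for 7 tissues: each marker was highest in its own tissue apart from Ttr, which was marginally higher in choroid plexus than in liver, and Aqp1, which was higher in liver than in choroid plexus. This was a check of rank, and some margins were narrow. Median CPM in choroid plexus, against the highest other tissue, was 201 against 116 for Kl and 74.7 against 49.3 for Folr1. It was 45.1 against 27.0 for Kcne2 and 142 against 98.7 for Clic6. In caudate putamen Drd1 had 193 against 138, Drd2 481 against 263 and Adora2a 510 against 269. Separation of these 2 tissues from the others was thus partial by these markers. Some libraries stood apart. In the caudate putamen library of aDR mouse 64 the members took 3.55% of all counts, against 1.26% to 1.68% in the other aDR libraries of that region. In the pons library of aDR mouse 67 the 10 most abundant genes took 23.4% of counts, and PBS mouse 84 differed from the other PBS mice in many genes throughout the brain (below). The main results that these libraries or this mouse move are given with and without them.

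Together the members held a median of 1.34% of counts over the 238 libraries. The share was lowest in motor cortex, with a median of 1.15% (1.04% to 1.32%, n = 16), and among brain regions highest in hypothalamus, with 1.62% (1.28% to 2.07%, n = 14), and olfactory bulb, with 1.61% (1.39% to 1.95%, n = 16). Liver stood above every brain region, with a median of 2.02% (1.70% to 2.29%, n = 9), although the highest libraries of olfactory bulb, hypothalamus, pons, medulla, caudate putamen, choroid plexus and anterior hippocampus reached into its range.

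**Figure D1:**
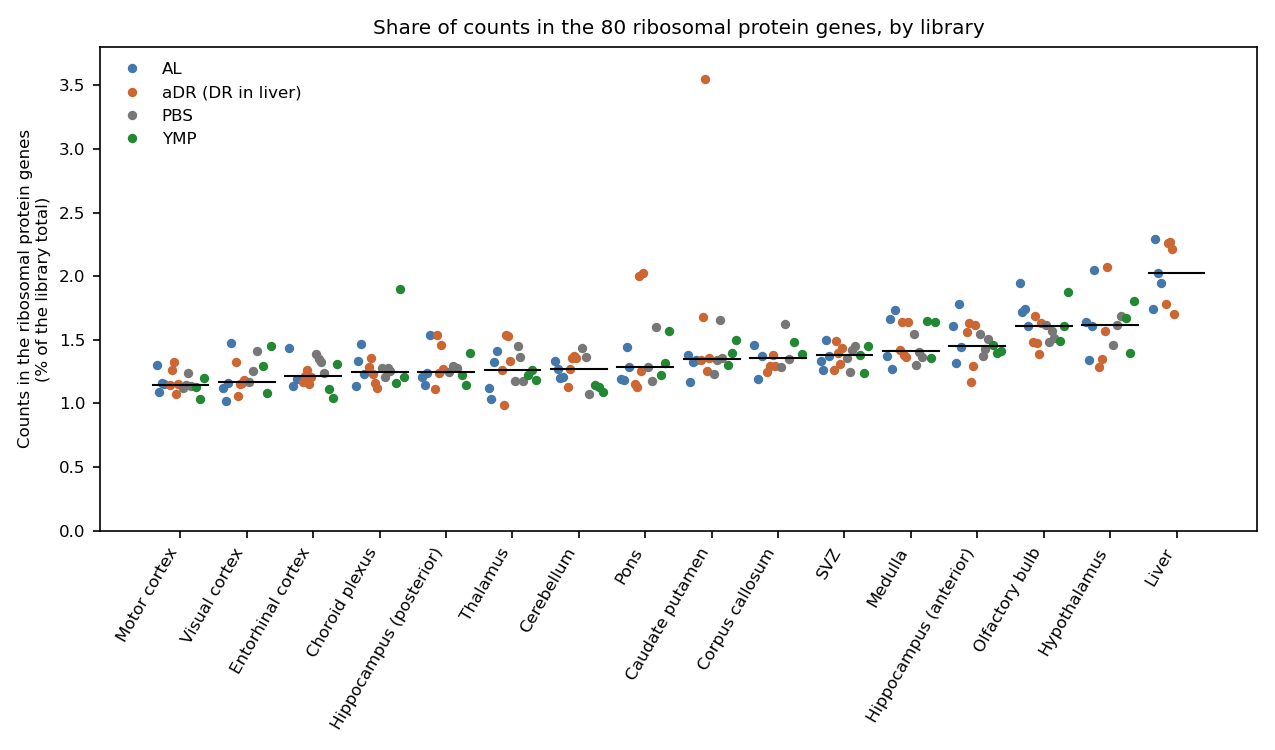
Share of each library's counts that fell in the 80 ribosomal protein genes (y axis, percent), by tissue (x axis, ordered by median) and treatment (colour); each point is 1 library and the black line is the tissue median. The liver median of 2.02% lies above the brain medians of 1.15% to 1.62%, and the caudate putamen library of aDR mouse 64 stands alone at 3.55%.

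The members were not equally abundant as mRNA, and protein was not measured. Per kilobase of annotated transcript, mean brain levels ran from 27.2 to 595 CPM per kb with a median of 201, and the medians of the small subunit (208) and large subunit (194) were close. Rpl3, a large-subunit protein near the catalytic centre, led on this scale with 595 CPM per kb, followed by Rpl41, the shortest protein of the ribosome, with 589 and Rps29 with 580. The lowest value belonged to Rps20, for which the annotated transcript taken as its length is 3706 bases, far longer than for most members, so its place is uncertain. These levels carry a further limit: 52 of the 80 members share at least 50% of their 50-base stretches with other annotated genes, mostly pseudogenes, and how the counting split such reads is not given in the sources used here. Across the 80 genes, which are not independent replicates, the shared part and the level per kb had a Spearman rho of 0.10.

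Between brain regions the members differed in modest steps. In an edgeR quasi-likelihood F test over 15 regions all 80 were called at an adjusted p under 0.05, which sets them apart from nothing, since 99.9% of 16063 genes were called. The range between a member's highest and lowest region had a median of 0.60 on the log2 scale, smaller than the 0.97 of 7332 genes of the same level and the 1.29 of all genes.

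The regions with more of these mRNAs were the olfactory bulb, the medulla, the caudate putamen and the hypothalamus. Against the mean of the other regions, 53 members were called higher in olfactory bulb (38.5% of all genes were called higher there), with a median difference of 0.23 log2. In medulla 56 were called higher (38.5% of all genes), with a median of 0.18, and in hypothalamus 37 were (34.7% of all genes), with a median of 0.12. In caudate putamen 61 were called higher (35.6% of all genes), with a median of 0.22, but this rested in large part on aDR mouse 64: without that library 33 were, with a median of 0.05, and among control mice alone 19 were, with a median of 0.02. Anterior hippocampus had 27 members called higher (27.1% of all genes) and 0 lower, with a median of 0.10. That count moved between 14 (without AL mouse 68) and 55 (without aDR mouse 64), with 15 without aDR mouse 61 and 17 without AL mouse 63 or without aDR mouse 62. Without the caudate putamen library of aDR mouse 64 alone it was 47.

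The members were lowest in cerebellum and in the cortical regions. In cerebellum 50 members were called lower (40.7% of all genes were called lower), with a median of -0.23. In entorhinal cortex 54 were called lower (31.7% of all genes), with a median of -0.17, although among control mice alone 17 were, with a median of -0.05. Motor cortex had 42 called lower (35.6% of all genes) and visual cortex 41 (33.8% of all genes), both with a median of -0.14. In thalamus 30 were called lower (33.8% of all genes), or 18 without YMP mouse 81, and in SVZ 26 were (29.2% of all genes). Against the share of all genes called in the fit of all libraries, thalamus, SVZ and anterior hippocampus had counts near the background. Counts in medulla, olfactory bulb, entorhinal cortex and cerebellum lay well above it. For regional fits of control mice alone, or with a mouse or library left out, the share of all genes is not given. Those counts therefore have no background beside them.

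The other regions showed little. In pons 22 members were called higher (38.5% of all genes), falling to 5 without the library of aDR mouse 67. In posterior hippocampus 17 were called lower (27% of all genes), or 10 without YMP mouse 73 and 8 without aDR mouse 61. In corpus callosum 14 were called higher (34.7% of all genes), with 22 without aDR mouse 64 and 7 to 9 without AL mouse 63, AL mouse 68, PBS mouse 80, YMP mouse 77 or YMP mouse 81. In choroid plexus 11 were called lower (26.4% of all genes), with 29 without YMP mouse 77 and 7 without AL mouse 63, YMP mouse 73 or YMP mouse 81. Levels of 349 other genes with transcripts under 800 bases were followed alongside, since the members are short too. Their regional median was highest in medulla, at 0.29 log2 above the mean of regions, and lowest in olfactory bulb, at -0.18, where the members were highest. Over the 15 regions the medians of members and short genes had r = 0.37, given as a description.

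**Figure D2:**
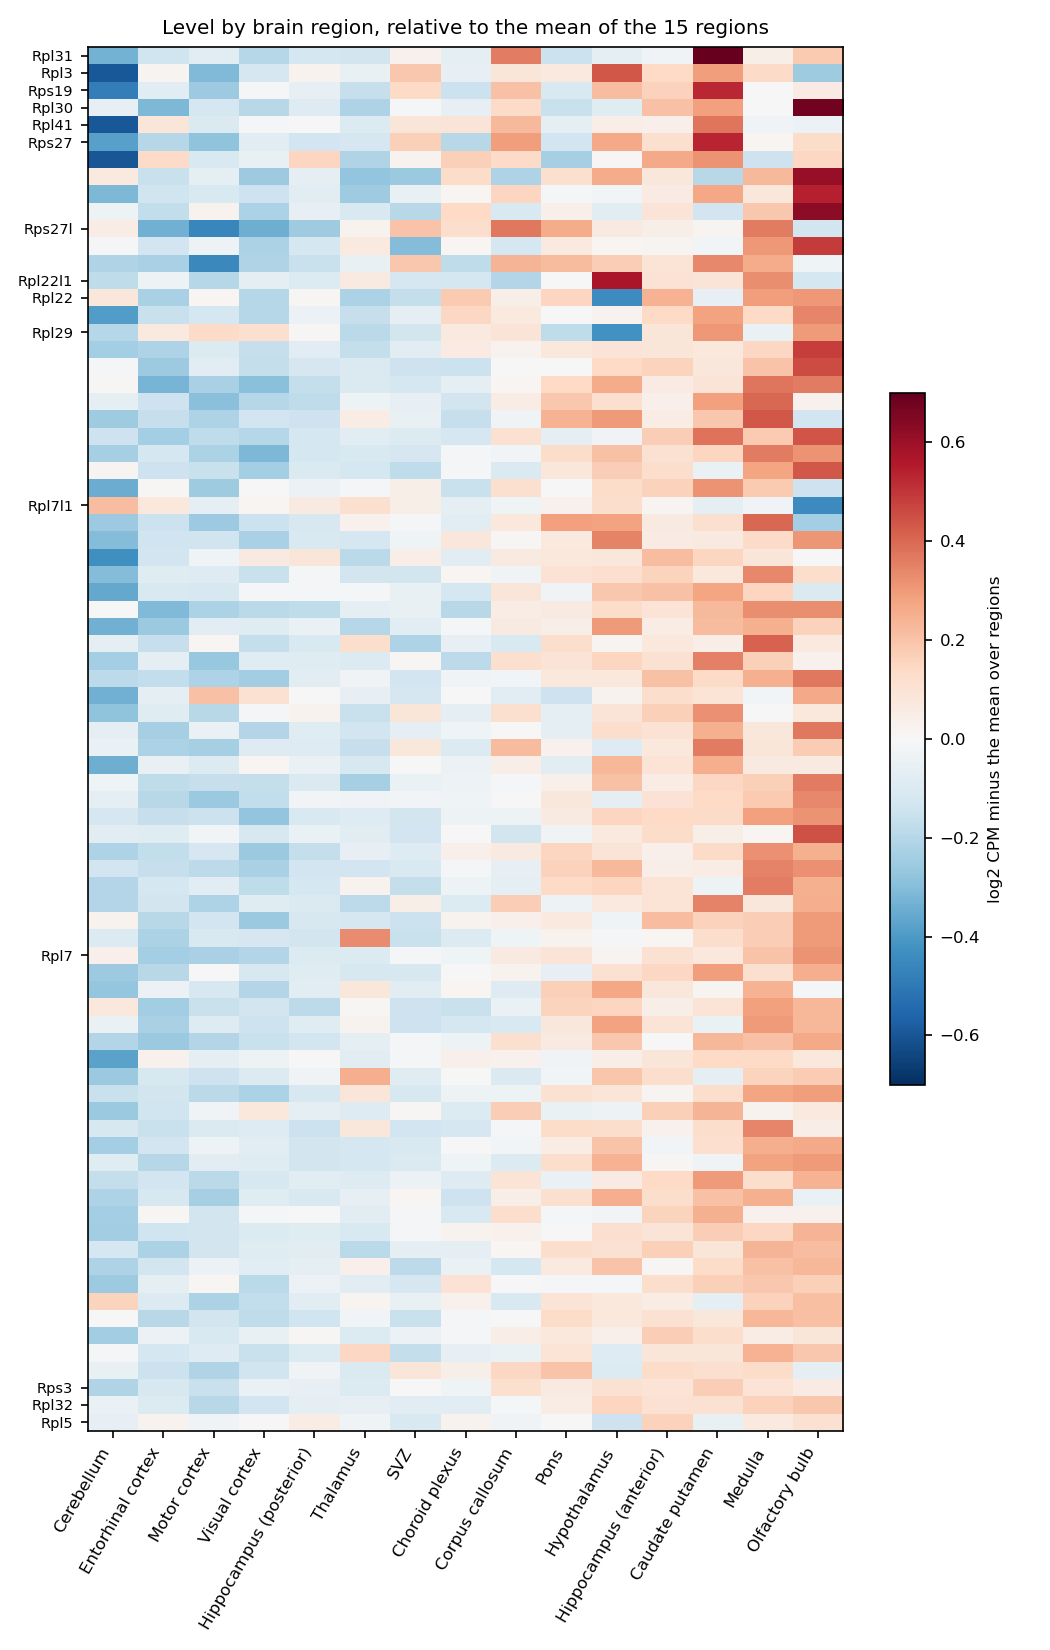
Mean level of each of the 80 ribosomal protein genes (rows, ordered by their range over regions, with the genes described by region and the paralog pairs labelled) in each of 15 brain regions (columns, ordered by the mean of the members), as log2 CPM minus the gene's mean over regions; red is above and blue below that mean. Most rows turn from blue in cerebellum and cortex to red in medulla and olfactory bulb, and Rpl22l1 with Rpl22 and Rpl29 part ways in hypothalamus.

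The 5 members with the largest range were Rpl31, Rpl3, Rps19, Rpl30 and Rpl41. Rpl31, a protein at the rim of the exit tunnel, ran from a median of 114 CPM in cerebellum (89.5 to 136) to 214 CPM in caudate putamen (166 to 735). The libraries of both regions did not overlap, and Rpl31 was higher in caudate putamen than in the other regions by 0.85 log2 (SE 0.06, edgeR adjusted p = 7.04e-29), and by 0.63 (SE 0.05, adjusted p = 1.02e-23) without the caudate putamen library of aDR mouse 64, to which the 735 CPM belong. Rpl3 had 524 CPM in cerebellum (467 to 569) and 1086 CPM in hypothalamus (964 to 1209). Its cerebellar level lay 0.65 log2 below that of the other regions (a difference of -0.65, SE 0.03, adjusted p = 1.62e-46). Rpl30 had 89.4 CPM in entorhinal cortex (75.5 to 131) and 182 CPM in olfactory bulb (153 to 228), where it was higher by 0.72 log2 (SE 0.06, adjusted p = 2.54e-23). Rps19, which is mutated in Diamond-Blackfan anaemia, and Rpl41 had the same extremes as Rpl31 by mean level: Rps19 had 143 CPM in cerebellum and 267 in caudate putamen, and Rpl41 had 162 and 288, all medians over libraries. Without the library of aDR mouse 64 their excess in caudate putamen fell from 0.70 to 0.43 log2 for Rps19 and from 0.56 to 0.25 for Rpl41. The largest ranges were then those of Rpl3 (1.03), Rpl30 (0.99), Rps15a (0.92), Rpl31 (0.92) and Rps19 (0.88), with Rpl41 at 0.82, and the median range of the 80 members was 0.58. The members that varied least were Rpl5, Rpl32 and Rps3, with ranges of 0.31, 0.38 and 0.38 log2. Rpl5, which carries the 5S ribosomal RNA with Rpl11, had a median of 115 CPM in hypothalamus (102 to 139) and 143 CPM in anterior hippocampus (128 to 167).

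The paralogs departed from the group. Rpl22l1 and its partner Rpl22, an RNA-binding protein of the large subunit that is dispensable for the ribosome, moved in opposite directions in hypothalamus. Rpl22l1 had a median of 158 CPM there (113 to 217) against 95.6 in olfactory bulb and 93.0 in cerebellum, while Rpl22 had 48.9 CPM (40.5 to 59.0) against 81.3 and 69.8. Against the other regions Rpl22l1 was higher in hypothalamus by 0.63 log2 (SE 0.06, edgeR adjusted p = 4.32e-20) and Rpl22 was lower, with a difference of -0.48 (SE 0.05, adjusted p = 7.02e-18). Rpl22l1 thus made up 76.1% ± 1.75 (SD, n = 14) of the counts of the pair in hypothalamus, with every library between 72.8% and 79.2%. In the other brain regions its mean share lay between 54.0% in olfactory bulb and 65.7% in thalamus, and the highest of their libraries, 1 of caudate putamen, reached 72.7%. Rpl29, a member with no paralog among those named, was also lower in hypothalamus, with a difference of -0.46 (SE 0.06, adjusted p = 1.85e-11).

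Rps27l, a paralog of Rps27 known as a target of p53, took a minor part of the pair's counts in brain and about an equal part in liver. Its mean share of the pair's counts lay between 7.86% in caudate putamen and 13.9% in cerebellum among brain regions. In liver it was 51.1% ± 4.84 (SD, n = 9), with libraries between 43.5% and 57.0%, far above the highest brain library at 17.9%. Rpl7l1, a paralog of Rpl7 linked to assembly of the large subunit, went the other way, with 8.54% ± 2.13 of its pair in liver against 14.7% in olfactory bulb and 26.6% in entorhinal cortex, its lowest and highest regional means. Its level was lower in olfactory bulb than in the other regions, with a difference of -0.48 log2 (SE 0.03, edgeR adjusted p = 7.56e-37). The median level of the members was highest in that region. None of the 3 pairs shares a 50-base stretch between its transcripts, but the partners differ in how much they share with other annotated genes. That part was 98.65% for Rps27 and 22.4% for Rps27l, and 65.6% for Rpl22l1 and 24.5% for Rpl22. For Rpl7 it was 53.3% and for Rpl7l1 12.2%. How such reads were counted is not given, and the shares are not scaled by transcript length. They are therefore shares of counts and not proportions of mRNA molecules. Rpl3l, the muscle form of Rpl3, had 662 counts in all 229 brain libraries together, Rpl39l had 51 and Rpl10l, a testis form, had 2.

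**Figure D3:**
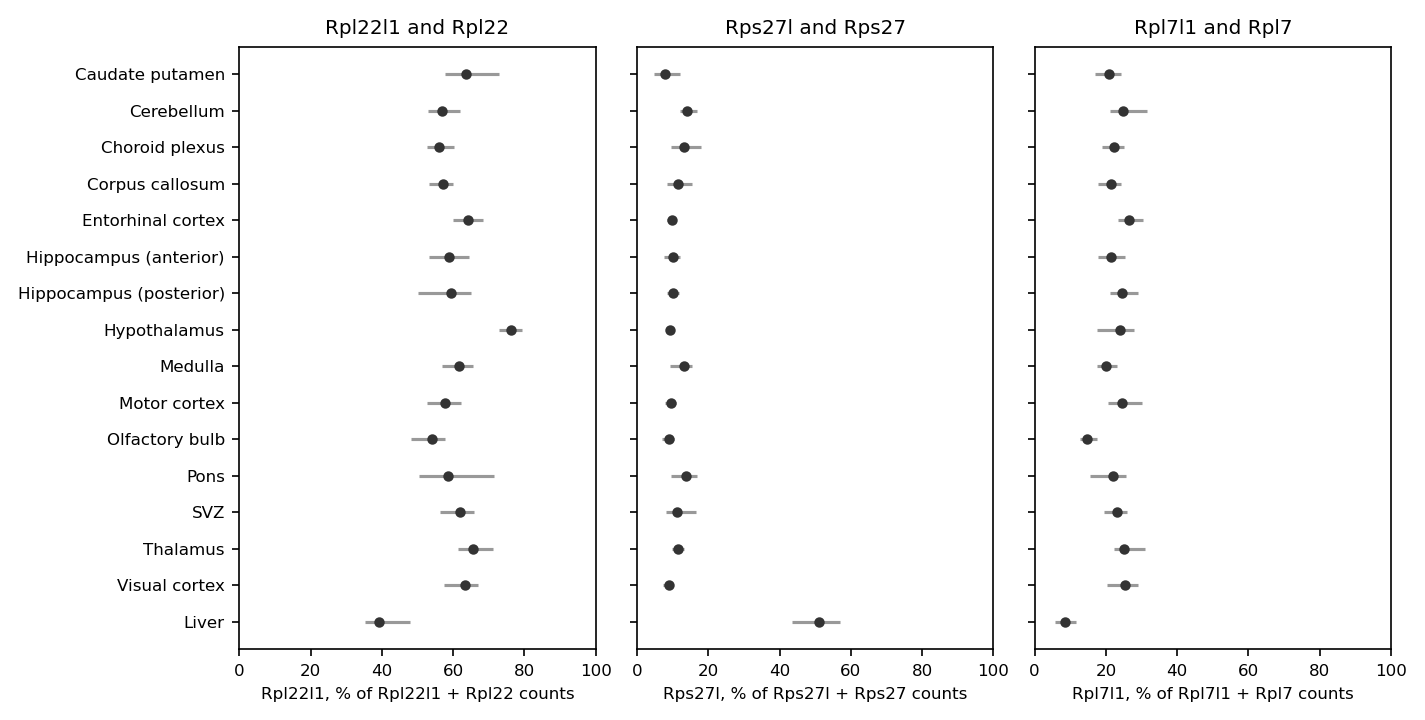
Share of the counts of a pair that fell in the paralog (x axis, percent) for Rpl22l1, Rps27l and Rpl7l1, by tissue (y axis); points are means over libraries and grey lines run from the lowest to the highest library. Rpl22l1 stands out in hypothalamus at 76.1%, Rps27l in liver at 51.1%, and Rpl7l1 is lowest in liver at 8.54%.

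In liver the whole group was higher than in brain. With 1 liver value and 1 mean brain value for each of the 9 mice of the diet experiment, limma called 79 members higher in liver (37.4% of 16128 genes were called higher) and 1, Rpl3, lower. The median difference was 1.68 log2, against -0.30 for all genes, so the members stood 1.98 above it. These log2 values were scaled between libraries. As an unscaled share of counts the contrast was smaller, with a median of 2.02% in liver and regional medians from 1.15% to 1.62% in brain. Small-subunit genes had a median of 1.76 and large-subunit genes 1.65. For 78 members the lowest liver value lay above the highest brain value, and the exceptions were Rpl3 and Rpl7l1. The share of all genes separated in this way was not computed, so the 78 has no background beside it. Genes with short transcripts were higher in liver as well, by a median of 0.58 log2 over 349 genes, and genes with transcripts over 4000 bases were lower, with a median of -0.62 over 3211 genes. The part of this in the members' difference was not tested.

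The members furthest above brain were Rps27l, Rpl10, Rps2, Rpl7a and Rps20. Rps27l ran from 389 to 704 CPM in liver with a median of 454, against regional medians such as 15.4 CPM in motor cortex and 27.0 in corpus callosum. Its difference was 4.54 log2 (SE 0.12, limma adjusted p = 3.66e-17). Rpl10, an X-linked gene whose protein joins the large subunit last, followed with 2.89 (SE 0.05, adjusted p = 4.36e-20) and Rps2 with 2.58 (SE 0.05, adjusted p = 3.45e-19). Rpl7a and Rps20 lay 2.43 and 2.39 log2 above brain. At the other end, Rpl3 was spread widely over livers, from 8.38 to 9.70 log2 CPM, while brain values lay between 9.53 and 9.74. Its difference of -0.45 (SE 0.19, adjusted p = 0.0301) lost the call in several alternatives given below. Rpl7l1 rose by 0.29 log2 (SE 0.11, adjusted p = 0.0237), a call lost without AL mouse 63, without aDR mouse 67 or in control mice alone (adjusted p from 0.0643 to 0.121). Rpl22l1, Rps3 and Rpl9 completed the lower end with 0.63, 0.68 and 0.72 log2.

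No member passed the test for dietary restriction over all brain regions. With 1 value per mouse, limma called 0 of 80 members and 144 of 15616 genes (0.922%). The median change of the members was 0.02 log2 against -0.01 for all genes, and 0.00 without the caudate putamen library of aDR mouse 64. At an unadjusted p under 0.05 there was 1 member, while 16.1% of all genes were under it. That member was Rpl3: its mouse values were 9.68, 9.69, 9.71, 9.71 and 9.80 log2 CPM under restriction and 9.59, 9.59, 9.67 and 9.67 in AL mice. The groups did not overlap, by a margin of less than 0.01, and the change of 0.09 log2 (SE 0.04) had a limma adjusted p of 0.290. With all libraries in a fit that keeps mouse as a block, Rpl3 alone was called (0.09 log2, adjusted p = 0.0245), and with no block Rpl3 and Rpl4 were. The next smallest p-values belonged to Rpl4, Rpl6, Rps18 and Rpl7a, with changes of 0.06, 0.06, 0.11 and 0.06 log2 and adjusted p from 0.364 to 0.400. Rps18 and the others overlapped between the groups.

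Within single regions, 0 of 1200 member-by-region tests were called for diet by edgeR (0.0525% of all gene-by-region tests were). At an unadjusted p under 0.05 there were 66, or 5.5%, close to the 6.24% of all tests. Nearly all of these, 61, lay in olfactory bulb, where all 80 members were lower under restriction. In an edgeR F test of whether the diet effect differed between regions, 0 members were called (0.0128% of genes were) and 1 had an unadjusted p under 0.05.

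In olfactory bulb the members' median level, relative to the mean of the region, was 0.30, 0.12, 0.15 and 0.01 log2 in the AL libraries and -0.13, 0.10, -0.14, -0.23 and 0.04 in the aDR libraries. The restricted mice thus lay lower on the whole, with an overlap, and the median change of the members was -0.21 log2. An unadjusted p under 0.05 in the lower direction was found for 61 of 80 members (7.05% of all genes), and 6 members did not overlap between the groups with aDR lower (1.93% of genes). Leaving out AL mouse 63 lowered the 61 to 28, and leaving out aDR mouse 64 lowered it to 40. Both counts lack the share of all genes in the same fit. The smallest p belonged to Rpl30, at 198, 206, 213 and 228 CPM in AL mice and 153, 160, 165, 183 and 192 CPM in aDR mice. All restricted mice were below all AL mice, and the change was -0.30 log2 (SE 0.07, edgeR adjusted p = 0.111). Rps29 and Rpl10 had edgeR adjusted p-values of 0.131 and 0.126 and changes of -0.38 and -0.22. For Rpl10 the AL libraries held 171, 173, 185 and 187 CPM and the aDR libraries 148, 150, 152, 157 and 163 CPM, again without overlap. DESeq2 called 4 members lower (0.404% of all genes), among them Rpl30 (adjusted p = 0.00807), Rps29 (0.0153) and Rpl10 (0.0153). Short-transcript genes lay lower in the same libraries: 0.06, 0.13, 0.15 and 0.27 log2 in AL mice and -0.17, -0.15, -0.10, 0.07 and 0.13 in aDR mice. Their part in the result was not tested.

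The largest median change under diet was in caudate putamen, and it rested on a single library. All 80 members had a higher mean under restriction, with a median of 0.59 log2, yet 0 had an unadjusted p under 0.05. Rpl36 shows the pattern: AL libraries held 114, 132, 132 and 138 CPM and aDR libraries 130, 132, 148, 179 and 764 CPM, where the last value is mouse 64. Without that library the median change of the members was 0.14. In that library short-transcript genes were also high, by 1.07 log2 over the mean of the region, and genes with long transcripts were low, at -0.31. In pons the median change was 0.33, and 0.14 without the library of aDR mouse 67. The members' level there was 0.70 log2 above the regional mean in mouse 67 and 0.51 in mouse 64, and at or below 0.01 in all other diet libraries of the region. Thalamus had a median change of 0.15 and hypothalamus of -0.11, with 0 members under an unadjusted p of 0.05 in either. Leaving out 1 mouse moved the first between 0.06 (aDR mouse 65) and 0.25 (aDR mouse 62) and the second between -0.31 (aDR mouse 67) and 0.01 (AL mouse 69), which turns its sign. The median changes of the remaining brain regions lay between -0.08 and 0.06.

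In liver no member passed the test for restriction either. The members' share of counts was 1.74%, 1.94%, 2.02% and 2.29% in AL livers and 1.70%, 1.78%, 2.21%, 2.26% and 2.27% in DR livers, which overlap throughout. The edgeR test called 0 of 80 (0.22% of 11815 genes were called), and 0 had an unadjusted p under 0.05 (9.09% of all genes did). DESeq2 called 0 as well. The median change of 0.10 log2 compares with 0.02 for all genes.

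**Figure D4:**
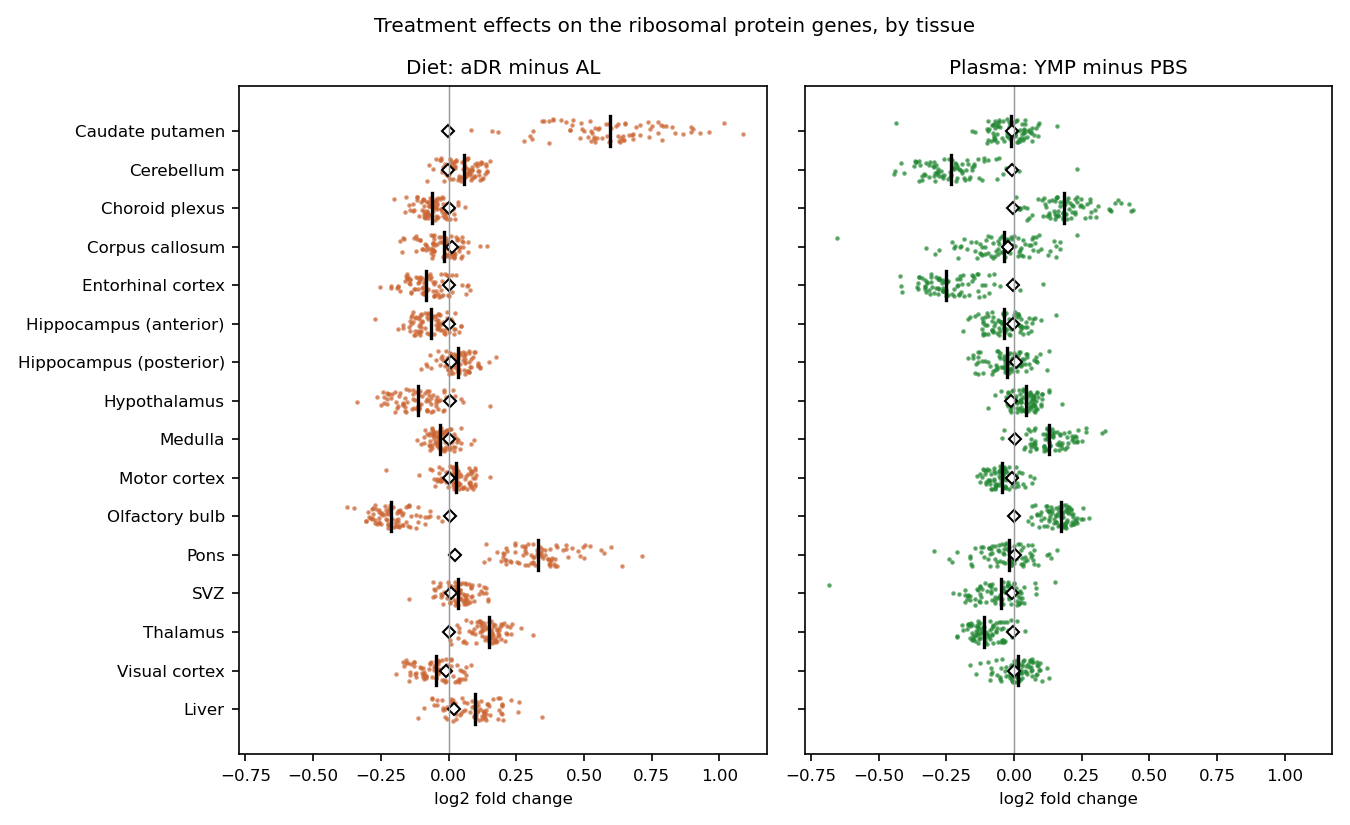
Log2 fold change of each of the 80 ribosomal protein genes (points) by tissue (y axis) for dietary restriction against free feeding (left) and for young plasma against saline (right), from the edgeR fit of each tissue; black bars are the medians of the members and open diamonds the medians of all genes tested. The members shift as a block, to a median of 0.59 in caudate putamen under diet and to -0.25 in entorhinal cortex under plasma, while the medians of all genes stay near 0. The shift in caudate putamen rested on 1 library, and its median was 0.14 without aDR mouse 64. No single point passed an adjusted p of 0.05.

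No member passed the test for young plasma across brain regions. The limma fit on mouse values called 0 of 80 members and 0 of 15768 genes (0%), 0 members had an unadjusted p under 0.05 (8.09% of all genes did), and the median change was -0.01 log2. A fit with mouse as a block called 0, and a fit with no block called Rpl7l1 alone (0.09 log2, adjusted p = 0.0145). The smallest p belonged to Rps27l, with a change of -0.15 log2 (SE 0.09, limma adjusted p = 0.687). Its mouse values ran from 4.24 to 4.48 log2 CPM in YMP mice and from 4.33 to 4.64 in PBS mice. Rpl39, Rpl7l1, Rpl23a and Rps15a followed, with changes of -0.10, 0.08, -0.08 and -0.07 and adjusted p from 0.742 to 0.814, all with overlapping groups.

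Within regions 0 of 1200 member tests were called for plasma (0.0127% of all tests were). At an unadjusted p under 0.05 there were 111, or 9.25%, against 6.11% of all tests. In an edgeR F test of whether the plasma effect differed between regions, 0 members were called (0.824% of all genes were) and 0 had an unadjusted p under 0.05. Of the 111 tests, 105 lay in cerebellum, entorhinal cortex and olfactory bulb.

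In cerebellum the members were lower after young plasma by a median of 0.23 log2 (a change of -0.23), with 29 members at an unadjusted p under 0.05 in that direction (5.27% of all genes) and 22 not overlapping between groups of 3 and 3 (7.63% of genes). Rps24, which had the smallest p, held 139, 152 and 156 CPM in PBS mice and 99.999, 115 and 120 CPM in YMP mice. Its change was -0.42 log2 (SE 0.09, edgeR adjusted p = 0.376), and DESeq2 called it alone among members (adjusted p = 0.0473), with 0.14% of all genes called lower. This comparison depended on PBS mouse 84, whose members' level, at -0.19 log2, lay among the YMP libraries at -0.11, -0.16 and -0.23, while the other PBS libraries stood at 0.15 and 0.22. Without that mouse, edgeR called 43 members lower (0.7% of all genes in the same fit), and the median change was -0.37. The count at an unadjusted p under 0.05 was then 75, against 13 without PBS mouse 72, 18 without YMP mouse 77 and 15 without YMP mouse 81. For these counts the share of all genes in the reduced fits is not given, so they have no background beside them. Short-transcript genes had the same order, with -0.27 in PBS mouse 84, 0.10 and 0.12 in the other PBS mice and -0.06 to -0.12 in YMP mice. Mitochondrial genes took 2.27%, 2.43% and 2.44% of counts in the PBS libraries and 1.64%, 1.81% and 2.245% in the YMP libraries, with no overlap. The part of either in the result was not tested.

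Entorhinal cortex gave a like picture. The median change was -0.25 log2, 34 members had an unadjusted p under 0.05 in the lower direction (2.43% of all genes) and 20 did not overlap between the groups (3.27% of genes). The members' level was 0.04, 0.17, 0.18 and 0.21 in PBS libraries and -0.24, -0.15 and 0.10 in YMP libraries, so YMP mouse 81 lay within the PBS range. Rpl23a, with the smallest p, held 108, 111, 112 and 113 CPM after saline and 70.7, 85.1 and 92.7 CPM after plasma, a change of -0.41 log2 (SE 0.10, edgeR adjusted p = 0.910). Leaving out a plasma-treated mouse turned the 34 into 57 (YMP mouse 81), 8 (mouse 73) or 5 (mouse 77). Leaving out a saline mouse turned it into 21 (PBS mouse 72), 13 (mouse 80) or 12 (mouse 76). None of these counts has the share of all genes in the same fit beside it. Mitochondrial genes took 1.61% to 1.75% of counts in the YMP libraries and 2.17% to 2.74% in the PBS libraries of this region, with no overlap. Short-transcript genes lay at -0.02, 0.16, 0.19 and 0.23 log2 after saline and at -0.14, -0.14 and 0.08 after plasma, lower on the whole with an overlap. The part of either in the result was not tested.

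In olfactory bulb the sign was the opposite of that under diet: all 80 members were higher after young plasma, by a median of 0.17 log2. An unadjusted p under 0.05 was found for 41 members (5.15% of all genes in that direction), and 6 members did not overlap with YMP higher (2.83% of genes). Rpl6 had the smallest p, with 143, 146, 151 and 157 CPM after saline and 160, 170 and 177 CPM after plasma, a change of 0.22 log2 (SE 0.06, edgeR adjusted p = 0.414). The YMP library of mouse 73, at 0.606 M counts, was the shallowest of the series. Leaving out YMP mouse 81 lowered the 41 to 3, PBS mouse 76 to 18 and PBS mouse 84 to 24, while leaving out YMP mouse 77 raised it to 66, and DESeq2 gave 27. The share of all genes at an unadjusted p under 0.05 is not given for these fits. Without YMP mouse 77, edgeR called 4 members higher (1.19% of all genes in the same fit). Short-transcript genes lay between -0.10 and -0.02 log2 after saline and at -0.16, -0.01 and 0.09 after plasma, and their part in the result was not tested. In choroid plexus the median of 0.18 turned to -0.07 without YMP mouse 77, in whose library the members lay 0.59 log2 above the regional mean and short-transcript genes 0.56 above it. Medulla had a median of 0.13, with 3 members at an unadjusted p under 0.05, and thalamus of -0.11, with 0.

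The members also varied together between libraries of the same group. After the mean of each group was subtracted, the correlation of pairs of members over the 238 libraries had a median of 0.82, against 0.01 for pairs of the 7332 genes of the same level. A single component held 83.0% of the members' residual variance, and the second 3.91%. Small-subunit pairs, large-subunit pairs and mixed pairs had medians of 0.83, 0.82 and 0.82, so pairs within a subunit were no closer than mixed pairs. The median was 0.79 without the pair of libraries that stood apart, 0.86 in the diet experiment and 0.75 in the plasma experiment. In the 9 livers alone it was lower, at 0.65, and 55.9% of pairs were above 0.5, against 94.2% over all libraries. The spread between replicates was larger than for like genes: the biological coefficient of variation, the replicate variation beyond counting error, had a median of 15.4% for members and 10.7% for genes of the same level. For all genes tested it was 14.6%, close to the members. It was estimated over all 238 libraries, with those that stood apart included, and no value without them is given. Libraries of a mouse share the animal, so these correlations are descriptions without a p.

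The members did not move alone. Over the 238 libraries their median residual had r = 0.85 with that of the 349 short-transcript genes and r = -0.57 with that of 3211 genes with transcripts over 4000 bases, none of them members. It had r = 0.87 with other genes of the TOP class and 0.77 with the mitochondrial ribosome, whose genes hold no TOP start in these windows. The relation with ribosome assembly and ribosomal RNA synthesis (r = 0.29) and with mTOR signalling genes (r = -0.12) was weak. Library depth (r = -0.06) and the share of mitochondrial genes (r = 0.42) were followed too, and lists of cell type markers ranged from -0.44 for astrocytes to 0.20 for striatal neurons. All of these values share the libraries and their scaling.

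Members with short transcripts swung further. The slope of a member on the median of the others fell with transcript length (Spearman rho -0.69 across 80 genes, which are not independent). Rpl32, Rps23 and Rpl24 followed the group most closely, with r of 0.97, 0.97 and 0.97 and slopes of 1.19, 1.08 and 1.09. The least bound were Rpl7l1 (r = 0.09), Rpl3 (0.37), Rpl4 (0.61), Rpl22 (0.67) and Rplp0 (0.67), with slopes of 0.06, 0.31, 0.34, 0.56 and 0.60. Rpl4 and Rplp0, the stalk protein, have long transcripts of 1538 and 1358 bases, and Rpl22 a short one of 474. Members with a TOP start had a median r of 0.94, those without it 0.92 and those with no entry 0.93. Outside the group, Fau, which encodes a ribosomal protein fused to a ubiquitin-like protein and which the symbol rule left out, followed it most closely (r = 0.91). Pfdn5, a prefoldin subunit, and Naca, which binds nascent chains at the ribosome, were also among the closest, with 0.90 each.

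**Figure D5:**
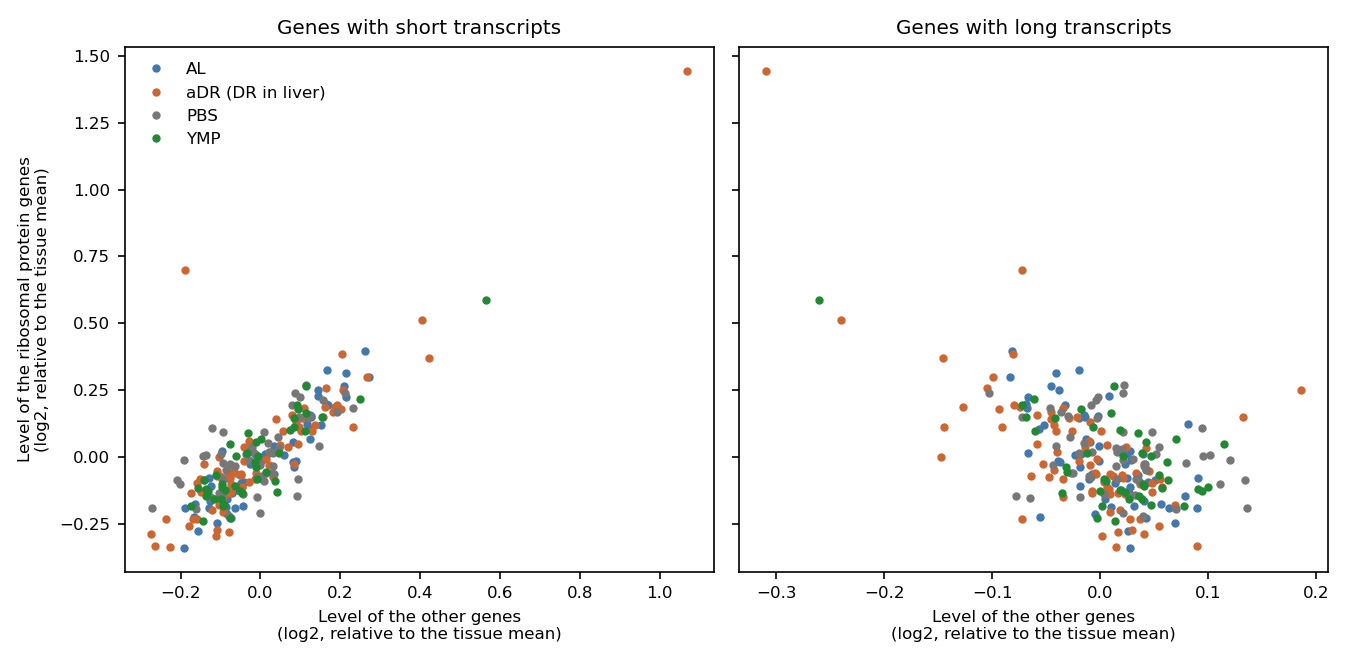
Median level of the 80 ribosomal protein genes in each of the 238 libraries (y axis, log2, relative to the tissue mean) against the median of 349 other genes with transcripts under 800 bases (left x axis) and of 3211 genes with transcripts over 4000 bases (right x axis); colours are treatments. The points rise on the left and fall on the right, and the caudate putamen library of aDR mouse 64 is the point at the top; the pons library of aDR mouse 67, at 0.70, lies off the line on the left.

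Mice of the same treatment group differed in 29 of the 80 members by an F test in limma over their brain libraries, close to the background of 34.5% of all genes. The count rested on few animals, and its place against the background moved with them. It was 12 without AL mouse 66 (5350 of 16039 genes called in the same fit) and 13 without PBS mouse 84 (1847 of 16042). Without aDR mouse 61 it was 15 (5031 of 16046) and without YMP mouse 81 it was 17 (5051 of 16449). Without aDR mouse 64 it was 47 (5542 of 16043). Calls among all genes fell from 5548 to 1847 without PBS mouse 84. Rps2, the member with the smallest p (adjusted p = 2.41e-06), lay at 7.84 log2 CPM in that mouse and at 7.41, 7.47 and 7.49 in the other PBS mice. In 8 of its 15 regions PBS mouse 84 had more Rps2 than every other library, as in visual cortex with 261 CPM against at most 199. Rpl7l1 was the converse, at 5.59 log2 CPM against 5.74, 5.76 and 5.79, and its level in PBS mouse 84 was the lowest of all libraries in 11 of 15 regions. Without that mouse neither was called (adjusted p = 0.269 for Rps2 and 0.673 for Rpl7l1). Rps29, Rps28 and Rps27 (adjusted p = 2.09e-04, 4.18e-04 and 0.00213) instead separated mice within several groups. Rps29 lay at 7.70, 7.71, 7.90 and 7.95 in PBS mice and at 7.68, 7.71 and 7.98 in YMP mice. In AL mice it ran from 7.62 to 8.01 and in aDR mice from 7.64 to 7.94, so the mice of each group spread over a like range.

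The other genes of the pathway were tested from lists. In 19 translation factors and further genes of the TOP class, 24 genes of ribosome assembly and ribosomal RNA synthesis, 13 genes of mTOR signalling and 78 genes of the mitochondrial ribosome, 0 were called across regions for diet or for plasma. Of all genes 0.922% were called for diet and 0% for plasma. The median changes for diet were 0.02, 0.02, 0.02 and 0.00 log2. Within regions and liver, 1 was called. Of all tests within regions 0.0525% were called for diet and 0.0127% for plasma, and 0.22% of genes were in liver. The gene was Tpt1, a small TOP-class gene for a tumour protein under translational control. It was lower in olfactory bulb under restriction, with a change of -0.27 log2 (SE 0.05, edgeR adjusted p = 0.0455). In that comparison 61 members had an unadjusted p under 0.05 in the same direction, and 0 were called. The TOP-class list had 8 of 19 genes at an unadjusted p under 0.05 there, in either direction, while 7.05% of all genes had one in the lower direction. Against brain, liver had 17 of 19 TOP-class genes called higher, with a median of 1.35 log2, and 56 of 78 genes of the mitochondrial ribosome, with a median of 0.64. Of all genes 37.4% were called higher. Of the ribosome assembly genes 16 of 24 were called lower and 4 higher, where 50.5% of all genes were called lower, and their median of -0.42 was near the -0.30 of all genes.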

How the data were processed

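Libraries were made from column-purified RNA by Smart-Seq2 and Nextera XT without strand information, per the labels. The authors deposited whole-number read counts per gene; Trim Galore 0.3.7, STAR 2.5.3a, DESeq2 and GRCm38 are named in the submitters' processing notes, and the counting program and annotation are not given in the sources used here. Of 21076 rows, 537 held no count; 0 columns were unused. The members and lists were chosen with earlier results of these data known. Replicates are mice, and the main p-values of treatments within a tissue or across regions measure the spread between them. Liver and brain values were not paired by mouse. Tests between regions, and of whether a treatment effect differed between regions, took libraries as units with no mouse block. Libraries of a mouse were thus treated as independent, and those p-values do not measure the spread between mice. In the test of mice, libraries of different regions of a mouse were the repeats.

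Comparisons within a tissue, the interactions and the regions were tested on the deposited counts with edgeR 4.0.16 (R 4.3.3; quasi-likelihood, TMM, filterByExpr with a minimum count of 10 and total of 15). Comparisons across regions, of liver with brain and of mice used limma 3.58.1 on log2 CPM (prior count 2), computed here. P-values were adjusted over all genes tested (Benjamini-Hochberg), and called means an adjusted p under 0.05. Within-library levels are TMM-scaled CPM. Transcript lengths came from the GENCODE annotation of GRCm38 (best-ranked, then shortest transcript).

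Named genes were paralogs, members with the 5 largest and 3 smallest regional ranges, the 5 smallest p per comparison across regions and between mice, any called within a tissue, the 5 at each end in liver, the 5 least and 3 most bound to the group, and those next to the threshold. Genes with the smallest p in single regions, and Rpl36, Rpl29 and the genes of DESeq2 calls, were chosen after their values were seen. Alternatives were RLE scaling, scaling without the members, no filter, no libraries under 2 M counts, prior count 0.5, DESeq2 1.42.0, a mouse block, control mice only, no choroid plexus, and each mouse or outlying library left out. Mouse numbers in the labels were taken to mark the same animal in all regions. Deviations from the group means correlated at 0.05 within and -0.01 between mice (diet), and at 0.14 and -0.02 (plasma). These correlations are small, above all for diet, and do not settle the pairing by themselves. Scripts were tested on simulated data. In 357 replicate pairs, chi-square per degree of freedom was at least 1.29, and none was merged. Some single-gene results are not reported here.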

Additional observations from a re-analysis of the deposited data

Results flagged for a closer look

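In the caudate putamen library of aDR mouse 64 the members held 3.55% of counts, far from the 1.26% to 1.68% of the other 4 aDR libraries of the region. Its depth of 5.80 M counts was within the usual range, and short-transcript genes lay 0.86 log2 above the mean of their group. In the diet comparison across regions, the Rpl3 value of the same mouse, at 9.80 log2 CPM, stood apart from the other aDR mice at 9.68 to 9.71. A gap test marked these 2 of 54 groups examined, and chance alone marks about 1 in 20, or 2.70 of 54.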

How the results depend on the processing

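No called result changed direction. Median changes within tissues, which carry no call, changed sign when 1 mouse was left out in 9 of 16 tissues for diet and 9 of 15 for plasma. With mouse as a replicate block, 1 member was called for diet across regions; with no replicate block 2 were, and 1 was for plasma. The block changed no other call count by over 1.5 times (80 members between regions, 80 in liver against brain). DESeq2 gave 4 member calls within regions for diet and 1 for plasma. Counts of members called in a region against the others moved as follows, with no share of all genes for these fits beside them. In control mice alone they were 19 in caudate putamen, 17 in entorhinal cortex, 8 in posterior hippocampus and 3 in pons. Without the caudate putamen library of aDR mouse 64 they were 33 in caudate putamen and 47 in anterior hippocampus, and without the pons library of aDR mouse 67 they were 5 in pons. With no filter on low counts they were 7 in choroid plexus, 8 in corpus callosum, 27 in posterior hippocampus and 19 in thalamus, and with RLE scaling 9 in corpus callosum. Leaving out each mouse in turn gave 0 to 44 calls for plasma within regions, 12 to 47 for mice of the same group, 33 to 65 in caudate putamen, 7 to 29 in choroid plexus, 7 to 22 in corpus callosum, 14 to 55 in anterior hippocampus, 8 to 22 in posterior hippocampus, 5 to 24 in pons and 18 to 38 in thalamus. The cause of these moves was not tested. In liver, the Rpl3 call was lost with RLE scaling (adjusted p = 0.0707, limma), in control mice alone (0.140), without either outlying library (0.0704 and 0.0743) and without AL mice 66, 68 or 69 or aDR mice 62 or 64 (0.0504 to 0.0780). Counting error is largest in the 6 libraries under 2 M counts, and leaving them out moved no count of calls by over 1.5 times.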
